A study of Macaca fascicularis with 6 samples.

Results

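The genes of the egg coat and of sperm reception described here are ZP2, ZP3 and ZP4, which encode glycoproteins of the zona pellucida, ASTL, which encodes the protease ovastacin, and IZUMO1R and CD9, which encode proteins of the egg membrane. These 6 members were chosen by gene symbol out of 28164 genes in the deposited table, with earlier results of these data known. All 6 were found and had enough counts to be tested. They were followed over 3 groups of cynomolgus monkey (Macaca fascicularis) oocytes, with 2 libraries per group. IVM MII oocytes were at metaphase of the second meiotic division after maturation in vitro, IVO MII oocytes had matured to it in vivo, and GV oocytes were immature, with the germinal vesicle still present. All oocytes were labelled wild type, untreated and stripped. The sources used here give neither the age of the animals nor how many oocytes and animals went into a library.

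The zona pellucida is a coat of filaments that the oocyte secretes around itself while it grows. Sperm bind to this coat, pass through it and fuse with the egg membrane. After fusion, cortical granules under the membrane release ovastacin, which in mice cleaves ZP2 so that further sperm no longer bind. On the membrane, the product of IZUMO1R, known as JUNO and held by a GPI lipid anchor, binds the sperm protein IZUMO1. The tetraspanin CD9 shapes the membrane there, and mouse eggs without it fuse poorly with sperm.

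The libraries held 33875153 to 35515139 counts in IVM MII, 27707021 to 29354497 in IVO MII and 31421282 to 32777458 in GV. Each member had at least 302 counts in every library. The oocyte label was checked with 8 oocyte markers, all of which were detected, and GDF9, a growth factor secreted by the oocyte, averaged 4504, 2452 and 13924 scaled CPM in IVM MII, IVO MII and GV. By the test described below, 1 of these 8 markers was higher and 4 were lower in IVM MII against GV. In IVO MII against GV 3 were higher and 4 lower, and in IVM MII against IVO MII 2 and 0. Over all genes tested, those shares were 25.6% and 24.7%, 28.1% and 30.5%, and 14.3% and 10.3%. DDX4, DAZL and MOS were the 3 higher in IVO MII against GV, and DDX4 was higher in IVM MII too. Means in IVM MII, IVO MII and GV were 245, 268 and 150 scaled CPM for DDX4. For DAZL they were 405, 518 and 310, and for MOS 165, 363 and 150. Scaled CPM, used below for the same gene across groups, is the CPM of a library after the TMM scaling of edgeR. TPM, counts divided by exonic length and scaled to the same sum in each library, is used to compare genes with each other. A log2 ratio is the fitted log2 fold change of the group named first. A value after ± is its standard error or, for a level, the SD of 2 libraries.

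The members lie apart in the genome. In the macFas5 coordinates of the file, ZP2 spans chromosome 20 from 20478292 to 20492633 on the minus strand, and ZP3 spans chromosome 3 from 47000724 to 47018331, also on the minus strand. ZP4 lies on the plus strand of chromosome 1 from 11583300 to 11591428. CD9 lies on the plus strand of chromosome 11 from 6406134 to 6444341, and IZUMO1R on the plus strand of chromosome 14 from 90166256 to 90168674. ASTL is on the unplaced scaffold Un_KE146022, from 24627 to 36386 on its plus strand. No exon of any member was overlapped by an exon of another gene of the table on either strand (0 other genes for each). The exonic lengths counted ran from 1111 bases for IZUMO1R to 2268 for ZP2. All 19 exon blocks of ZP2 were shorter than 200 bases, against 6 of 8 for ZP3 and 1 of 4 for IZUMO1R. The aligner named in the processing notes, Bowtie2, does not split reads over introns, and the part this plays in the levels per length was not tested.

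The transcripts of ZP3, ZP4 and ZP2 stood among the most abundant of the oocyte. By mean TPM, ZP3 ranked 15 in IVM MII, 47 in IVO MII and 16 in GV among all genes of the table. ZP4 ranked 44, 135 and 50 in those groups, and ZP2 ranked 52, 119 and 77. The other members were lower. CD9 ranked 813 in IVM MII, 1634 in IVO MII and 707 in GV, ASTL ranked 1625, 5172 and 2002, and IZUMO1R ranked 2882, 3488 and 455. Together the 6 members took 1.11% and 0.966% of the counts of the IVM MII libraries, 0.294% and 0.442% in IVO MII, and 1.05% and 1.48% in GV. The share was lower in both IVO MII libraries than in any of the other 4.

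**Figure D1:**
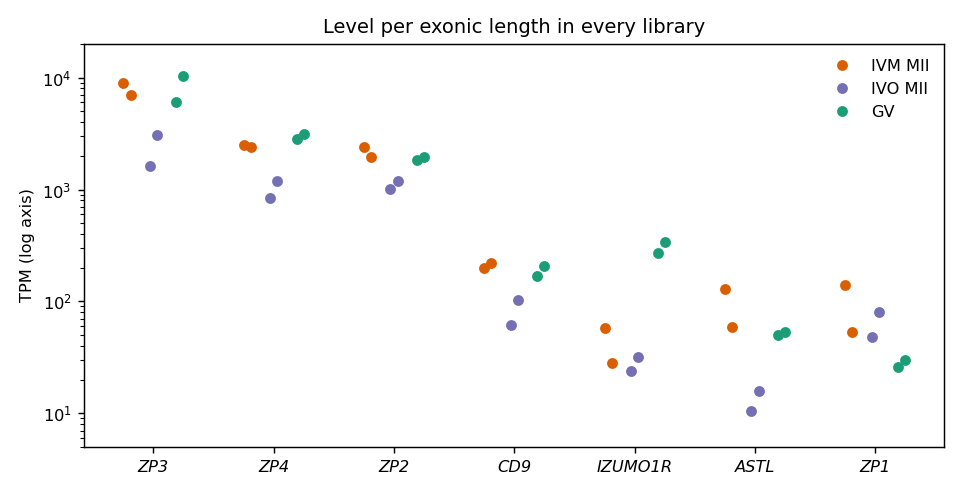
TPM on a log axis for the 6 members and ZP1, with a point for each library of IVM MII, IVO MII and GV. ZP3 is above all other genes shown in each group, between 1611 and 10379 TPM, and IZUMO1R stands above CD9 only in GV.

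The order of the levels was led by ZP3 in each group. In IVM MII, ZP3 had 7017 to 8933 TPM, 3.25 times ZP4. ZP4 and ZP2 followed at 2452 and 2191 TPM on average, with overlapping libraries, then CD9 at 209, ASTL at 93.5 and IZUMO1R at 43.0 TPM, and none of these last 3 overlapped its neighbour among the members. The order in IVO MII was ZP3 at 1611 to 3088 TPM, ZP2 and ZP4 at 1100 and 1021 with overlapping libraries, CD9 at 81.9, IZUMO1R at 27.7 and ASTL at 13.1. In GV it was ZP3 at 5999 to 10379 TPM, ZP4 at 2981, ZP2 at 1897, IZUMO1R at 303, CD9 at 188 and ASTL at 51.9 TPM, with no overlap between neighbours. IZUMO1R thus stood above CD9 only in GV, since the TPM ratio of IZUMO1R to CD9 was 0.291 and 0.128 in the IVM MII libraries, 0.388 and 0.309 in the IVO MII libraries, and 1.59 and 1.62 in the GV libraries.

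All 6 members were lower in IVO MII than in GV, the comparison that addresses maturation in vivo. The quasi-likelihood test of edgeR, with Benjamini-Hochberg adjustment across the 15815 genes tested, called 6 of 6 lower at 0.05. Of all genes tested, 58.5% were called in either direction and 30.5% lower. The median log2 ratio of the members was -2.06, and that of all genes tested was -0.07. Since the members were chosen with earlier results known, their contrasts with all genes, here and below, are a description. In each member both IVO MII libraries lay below both GV libraries, while 80.2% of all genes tested were separated in one direction or the other. Levels are shares of the poly(A)-primed RNA of a library. With such priming, less of a transcript and a shorter poly(A) tail on it cannot be told apart. If a library pools oocytes, fewer oocytes that hold a transcript and less of it in each cannot be told apart.

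ZP3 encodes the zona protein that pairs with the other zona proteins along the filaments. It had 1161 and 2059 scaled CPM in IVO MII, against 5241 and 9454 in GV. Both groups were uneven, with the replicates 0.83 and 0.85 apart on the log2 scale, where the median gene differed by 0.36 and 0.30, yet the groups did not overlap. ZP3 was 4.56-fold lower, with a log2 ratio of -2.19 ± 0.37 and an adjusted p of 3.93e-04. ZP4, a zona protein of human and monkey oocytes whose gene is not functional in mice, had 774 and 1006 scaled CPM in IVO MII, against 3115 and 3619 in GV. It was 3.79-fold lower, with a log2 ratio of -1.92 ± 0.27. ZP2, the zona protein that ovastacin cuts in mice, had 1144 and 1245 scaled CPM in IVO MII, against 2503 and 2815 in GV. Its fold, 2.23-fold lower with a log2 ratio of -1.15 ± 0.25 and an adjusted p of 0.00201, was the smallest of the 6.

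IZUMO1R had the largest fold of the 6, and the log2 ratios of ASTL and ZP3 were within their standard errors of each other. IZUMO1R had 13.2 and 16.2 scaled CPM in IVO MII, against 181 and 236 in GV. It was 14.2-fold lower, with a log2 ratio of -3.82 ± 0.30, a size that 97.1% of the genes tested did not exceed. ASTL had 11.7 and 16.5 scaled CPM in IVO MII, against 68.2 and 76.3 in GV. Both groups were narrow beside the gap between them, and ASTL was 5.12-fold lower, with a log2 ratio of -2.36 ± 0.30 and an adjusted p of 5.65e-05. CD9 had 40.2 and 62.0 scaled CPM in IVO MII, against 134 and 172 in GV, and was 3.00-fold lower, with an adjusted p of 4.36e-04. An offset that removes the trend of the log2 levels with exonic length in each library left every call in place but moved the log2 ratios of IZUMO1R to -3.04, ZP3 to -1.51 and CD9 to -0.87. A test against a 2-fold change ended the call of ZP2 (adjusted p = 0.243).

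**Figure D2:**
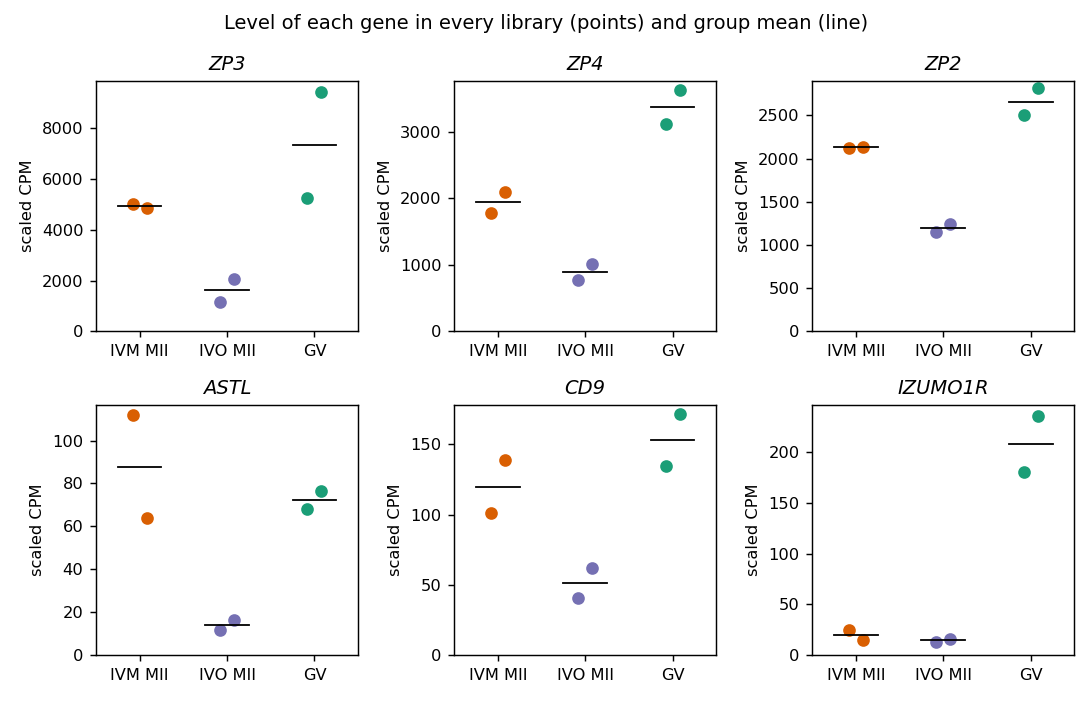
Scaled CPM on linear axes that start at 0, with a point for each library and a line at the mean of each group. ZP3, ZP4, ZP2, ASTL and CD9 are lowest in IVO MII, and IZUMO1R is low in both MII groups, at 13.2 to 24.9 scaled CPM, against 181 and 236 in GV.

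In IVM MII against GV, the comparison that addresses maturation in culture, IZUMO1R was lower by a large fold and ZP4 by a small one, and the other 4 members did not pass the test. The edgeR test called 2 of 6 lower and 0 higher, where 50.3% of all genes tested were called, 24.7% lower and 25.6% higher. Higher genes were 50.9% of those calls, or 63.7% with scaling by library totals. Of the 4 members without a call, 0 had an unadjusted p under 0.05, and DESeq2 and limma-voom also called only IZUMO1R and ZP4. The median log2 ratio of the members was -0.46, and that of all genes tested 0.06. This comparison shares its GV libraries with the one above.

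IZUMO1R had 24.9 and 15.1 scaled CPM in IVM MII, against 181 and 236 in GV. It was 10.4-fold lower, with a log2 ratio of -3.38 ± 0.29 and an adjusted p of 6.68e-06, and leaving out any 1 library kept its call. ZP4 had 1779 and 2095 scaled CPM in IVM MII, against 3115 and 3619 in GV, and was 1.74-fold lower with a log2 ratio of -0.80 ± 0.27 and an adjusted p of 0.0263. The call of ZP4 ended without IVM MII replicate 1 (log2 ratio -0.65), GV replicate 1 (-0.89) or GV replicate 2 (-0.68), with scaling by library totals (-0.51), and with the length offset (-0.46).

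By scaled CPM, the 4 members without a call in culture fell into 2 that were separate from GV and 2 that overlapped it. ZP3 had 5010 and 4854 scaled CPM in IVM MII, against 5241 and 9454 in GV, and its log2 ratio was -0.58, with a 95% interval from -1.36 to 0.21. ZP2 had 2126 and 2136 scaled CPM in IVM MII, against 2503 and 2815 in GV, and its log2 ratio was -0.32, with an interval from -0.86 to 0.22. Both IVM MII libraries lay below both GV libraries for each of these genes, as did 1 group below the other in 77.8% of all genes tested. CD9 had 101 and 139 scaled CPM in IVM MII, against 134 and 172 in GV, and the groups overlapped. The interval of its log2 ratio ran from -0.93 to 0.23. ASTL had 112 and 63.9 scaled CPM in IVM MII, against 68.2 and 76.3 in GV, so the libraries matured in culture lay on both sides of the GV ones. Its log2 ratio was 0.28, with an interval from -0.33 to 0.90, and -0.14 without IVM MII replicate 1. The signs of ZP2 and CD9 depended on the scaling, since their mean TPM, at 2191 and 209 in IVM MII, stood above the 1897 and 188 of GV. The length offset gave 0.10 for CD9, without a call. Separation from GV also depended on the scaling. ZP3 had 8933 and 7017 TPM in IVM MII, against 5999 and 10379 in GV, and thus overlapped. ZP2 overlapped too, with 2415 and 1968 TPM in IVM MII, against 1825 and 1969 in GV. ASTL, at 128 and 59.3 TPM in IVM MII, lay above the 50.0 and 53.7 of GV.

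**Figure D3:**
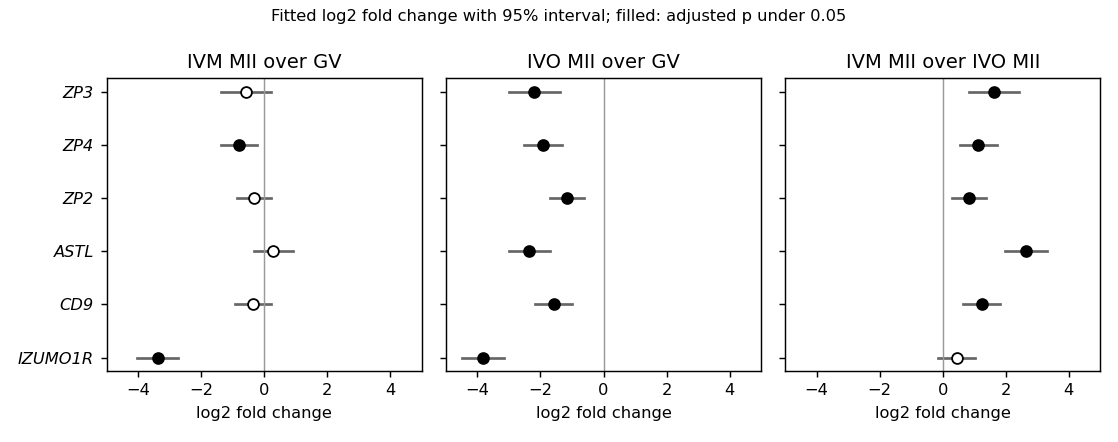
Log2 ratios with 95% intervals for each member, in 3 panels for IVM MII over GV, IVO MII over GV and IVM MII over IVO MII; filled points have an adjusted p under 0.05. IZUMO1R lies at -3.38 and -3.82 in the comparisons with GV, while ASTL lies at 0.28 and -2.36 in them and at 2.64 between the MII groups.

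The direct comparison of IVM MII with IVO MII, which is also the test of whether the changes from GV differed between the routes, found 5 of 6 members higher in IVM MII and 0 lower. Among all genes tested, 24.6% were called, 14.3% higher and 10.3% lower, so that 58.0% of the calls were higher, or 75.8% with scaling by library totals. The 5 called members had both IVM MII libraries above both IVO MII ones, and 63.0% of all genes tested were separated in one direction or the other. The median log2 ratio of the members was 1.18, and that of all genes tested 0.02. ASTL showed the largest difference, and IZUMO1R was the member without a call.

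ASTL had 112 and 63.9 scaled CPM in IVM MII, against 11.7 and 16.5 in IVO MII. The lowest IVM MII library thus lay well above the highest IVO MII one, although the IVM MII replicates were 0.81 apart on the log2 scale, where the median gene differed by 0.33. ASTL was 6.23-fold higher, with a log2 ratio of 2.64 ± 0.30 and an adjusted p of 1.37e-04. Its size was above that of 95.6% of the genes tested, and the call held under all 17 alternative settings, with log2 ratios from 2.21 to 2.99. ASTL was the sole member whose call between the MII groups passed the test against a 2-fold change.

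The zona members ZP3, ZP4 and ZP2 were higher in IVM MII by smaller folds. ZP3 had 5010 and 4854 scaled CPM in IVM MII, against 1161 and 2059 in IVO MII, with a log2 ratio of 1.62 ± 0.37 and an adjusted p of 0.00819. Its call ended without IVO MII replicate 1, the lower of the IVO MII libraries (log2 ratio 1.26, adjusted p = 0.0624). ZP4 had 1779 and 2095 scaled CPM in IVM MII, against 774 and 1006 in IVO MII, and was 2.18-fold higher, with an adjusted p of 0.0107. Leaving out IVM MII replicate 2 (1.00) or IVO MII replicate 1 (0.95) ended that call. ZP2 had 2126 and 2136 scaled CPM in IVM MII, against 1144 and 1245 in IVO MII. The replicates of ZP2 were close in both groups and the groups did not overlap. ZP2 was 1.78-fold higher, with a log2 ratio of 0.83 ± 0.25 and an adjusted p of 0.0301. Its call ended without either IVM MII replicate (0.87 and 0.84), either IVO MII replicate (0.78 and 0.91) or GV replicate 1 (0.84), and with the length offset (0.70).

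Of the membrane genes, CD9 was higher in IVM MII than in IVO MII and IZUMO1R did not pass. CD9 had 101 and 139 scaled CPM in IVM MII, against 40.2 and 62.0 in IVO MII, and was 2.34-fold higher, with an adjusted p of 0.00707. Its call ended without IVM MII replicate 2 (log2 ratio 0.98, adjusted p = 0.0729). IZUMO1R had 24.9 and 15.1 scaled CPM in IVM MII, against 13.2 and 16.2 in IVO MII, so the groups overlapped. The log2 ratio of IZUMO1R was 0.44, with a 95% interval from -0.15 to 1.04. Without IVM MII replicate 1 it was 0.07 and without IVM MII replicate 2 it was 0.76, with no call in either case.

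**Figure D4:**
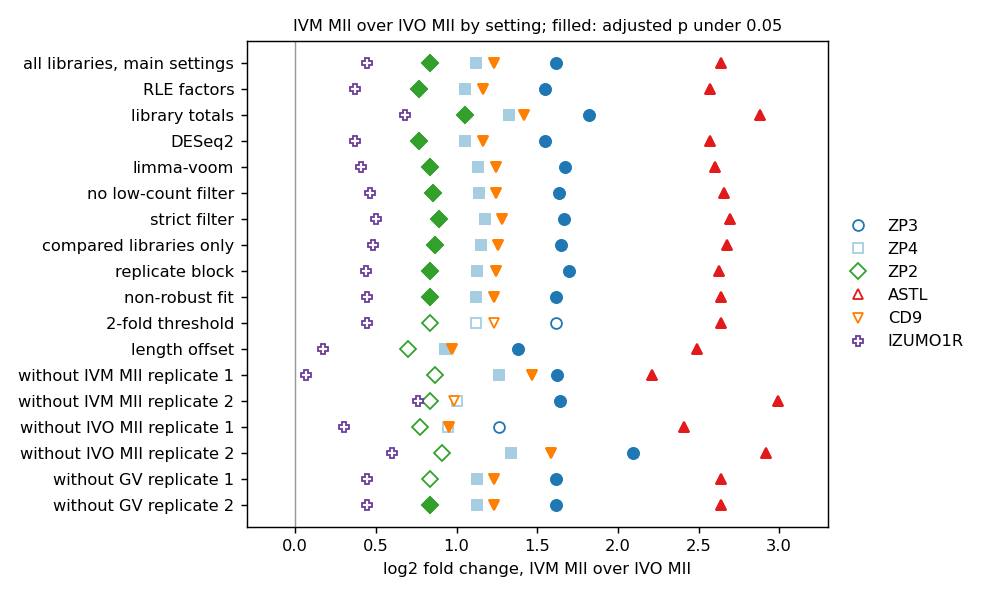
Log2 fold change of IVM MII over IVO MII (x axis) for each member under the main settings and 17 alternatives (rows); filled points have an adjusted p under 0.05. ASTL stays between 2.21 and 2.99 and is called in each row, ZP2 stays between 0.70 and 1.05 and loses its call in several, and IZUMO1R is never called.

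The make-up of the zona transcripts also varied. Within the summed TPM of ZP1, ZP2, ZP3 and ZP4, ZP3 took 63.8% and 61.4% in the IVM MII libraries, 45.8% and 55.6% in IVO MII, and 56.2% and 66.9% in GV. The ranges of IVO MII and GV did not overlap but came within a percentage point of each other. ZP2 took 17.3% and 17.2% in IVM MII, 28.7% and 21.4% in IVO MII, and 17.1% and 12.7% in GV, so its share was highest in both IVO MII libraries. The TPM ratio of ZP4 to ZP2 was 1.04 and 1.22 in IVM MII, 0.839 and 1.00 in IVO MII, and 1.54 and 1.60 in GV, which was higher than in any MII library. These shares and ratios are given as a description, without a test.

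**Figure D5:**
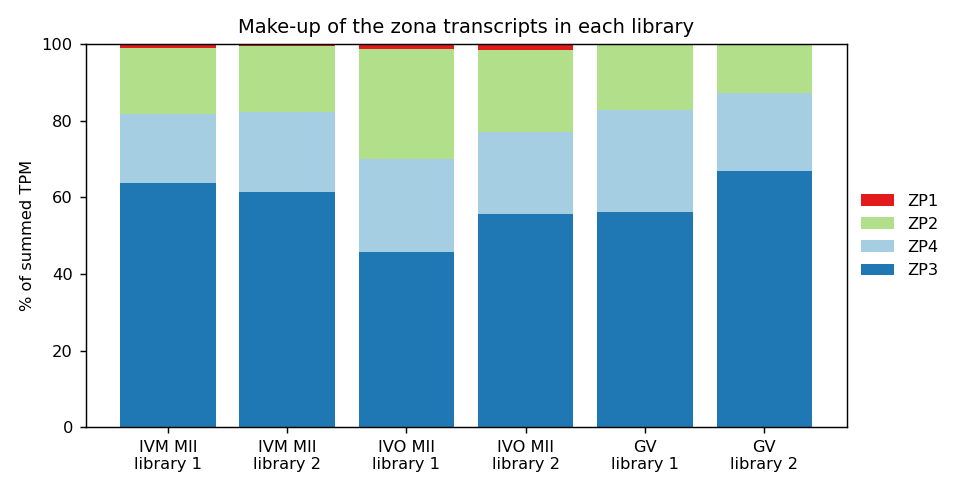
Stacked bars of the percent of the summed TPM of ZP1, ZP2, ZP3 and ZP4 held by each gene, 1 bar per library. ZP3 takes 45.8% to 66.9% of the sum, and ZP1 is a thin band that is widest, at 1.35% and 1.45%, in the IVO MII libraries.

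ZP1, which cross-links zona filaments, is not one of the 6 members and did not fall with the other zona genes. By mean TPM, ZP1 ranked only 1580 in IVM MII, 1994 in IVO MII and 2976 in GV among all genes of the table. It had 107 and 49.4 scaled CPM in the IVM MII libraries, 46.3 and 72.2 in the IVO MII libraries, and 30.3 and 37.1 in GV, with both MII groups above GV. In culture ZP1 came to be 2.31-fold higher, for IVM MII against GV (adjusted p = 0.0116), and its log2 ratio of 0.81 in IVO MII against GV did not pass (adjusted p = 0.0565). Leaving out IVM MII replicate 1 (0.59) or GV replicate 1 (1.08) ended the first of these calls, and IVM MII against IVO MII gave no call (adjusted p = 0.416). The list of other egg coat and oocyte-secreted genes held 8 symbols, of which 4 were matched in the table and 3 had enough counts. Of these 3, 1 was higher and 1 lower in IVM MII against GV, 0 and 2 in IVO MII against GV, and 1 and 0 between the MII groups. The 1 higher gene against GV is ZP1, which was also called, as 1 higher, in IVO MII against GV without either IVM MII replicate or IVO MII replicate 1. OOSP4B, an oocyte-secreted protein gene listed as LOC102129472 and named from RefSeq by its gene number, was abundant. Its levels were 2132 and 3912 scaled CPM in the IVM MII libraries, 1306 and 865 in the IVO MII libraries, and 4115 and 3260 in GV. In IVO MII against GV, LOC102129472 was lower by a log2 ratio of -1.76 (adjusted p = 0.00106). Against IVO MII, IVM MII was 2.78-fold higher (adjusted p = 0.00951). Leaving out IVM MII replicate 2 (0.98) or IVO MII replicate 2 (1.23) ended that call of LOC102129472.

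Other proteins of the egg membrane were taken from a list of 16 tetraspanins, tetraspanin partners, integrins and FCRL3. All 16 were in the table and 12 were tested, with FCRL3 at 0 counts in every library. In IVO MII against GV, 4 were higher and 6 lower, or 3 lower without GV replicate 2. In IVM MII against GV, 4 were higher and 3 lower. The medians of the log2 ratios were -0.77 and -0.41, beside -0.07 and 0.06 for all genes tested. Except for CD63, the genes lower in IVO MII (CD151, CD81, CD37, ITGA3 and ITGB5) averaged only 0.781 to 2.87 scaled CPM in GV. CD81, CD37 and CD151 were the 3 lower in IVM MII. The 4 higher in IVO MII were PTGFRN, ITGB1, ITGA9 and ITGAV, with means of 301, 88.7, 14.5 and 12.6 there. The whole list summed to 292 and 271 scaled CPM in the GV libraries, 325 and 358 after culture, and 506 and 536 after maturation in vivo. Of all genes tested, 28.1% were higher and 30.5% lower in IVO MII against GV, and 25.6% and 24.7% in IVM MII against GV. CD81, a tetraspanin that acts beside CD9 in mouse egg fusion, had 0 and 2 counts in the IVM MII libraries, 5 and 8 in IVO MII, and 40 and 28 in GV. It was thus near the limit of detection in a set of libraries in which CD9 had at least 1041 counts. CD63, another tetraspanin, averaged 7.57 ± 2.56 scaled CPM in IVO MII, against 34.3 ± 1.34 in GV, and was 4.52-fold lower. At 23.1 ± 0.761 it was 3.05-fold higher in IVM MII than in IVO MII (adjusted p = 0.00150).

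Some partners of CD9 went the other way. PTGFRN, an immunoglobulin-family partner of CD9, had 108 and 122 scaled CPM in IVM MII, against 280 and 323 in IVO MII, and was 2.62-fold lower (adjusted p = 9.45e-04). ITGB1, the beta-1 integrin, was higher than in GV by both routes, with means of 49.3, 88.7 and 19.0 scaled CPM in IVM MII, IVO MII and GV. Between IVM MII and IVO MII, 3 genes of the list were higher and 2 lower, beside 14.3% and 10.3% of all genes tested. Those counts were 1 and 1 without IVM MII replicate 1, and 1 was lower without IVO MII replicate 1. Of the other folate receptor genes, relatives of IZUMO1R, FOLR3 was not found among the genes counted, and FOLR1 and FOLR2 were close to absent. FOLR1 had 28 and 44 counts in IVM MII, 3 and 1 in IVO MII and 6 and 5 in GV. FOLR2 had 0 to 5 counts in each library. FOLR1 was called higher in IVM MII than in GV (adjusted p = 0.0173), but not without IVM MII replicate 2 or either GV replicate. It was also called higher than in IVO MII (adjusted p = 0.00815), but not without IVM MII replicate 2.

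The genes that build and attach GPI anchors, such as the one JUNO carries, were called in both directions against GV. Of 28 listed, 23 were tested. In IVO MII against GV, 8 were higher and 9 lower, and in IVM MII against GV, 7 were higher and 6 lower. The median log2 ratios were -0.09 and 0.05, beside -0.07 and 0.06 for all genes tested. Of all genes tested, 28.1% were higher and 30.5% lower in the first comparison, and 25.6% and 24.7% in the second. Between the MII groups those shares were 14.3% and 10.3%. PIGA, the catalytic subunit of the first step, averaged 147 scaled CPM in IVO MII, 111 in IVM MII and 47.1 in GV. PIGC, of the same enzyme, averaged 4.88 in IVO MII, 8.35 in IVM MII and 152 in GV. Subunits of 1 enzyme thus went opposite ways, PIGA being 3.13-fold and 2.36-fold higher than in GV and PIGC 31.1-fold and 18.2-fold lower. The 8 higher genes were 5 without GV replicate 2 or IVO MII replicate 1, and the 7 were 4 without GV replicate 2. Between IVM MII and IVO MII, 4 were higher and 0 lower, or 1 lower without IVM MII replicate 1.

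Ovastacin is stored in cortical granules, and 14 of 16 listed genes of granule traffic and exocytosis were tested. In IVO MII against GV 1 was higher and 7 were lower, with a median log2 ratio of -0.64, and 2 were higher without GV replicate 1. In IVM MII against GV 2 were higher and 4 lower, or 1 higher without IVM MII replicate 2 and 2 lower without IVM MII replicate 1. Of all genes tested, 28.1% were higher and 30.5% lower in IVO MII against GV, with a median log2 ratio of -0.07. In IVM MII against GV those shares were 25.6% and 24.7%, and between the MII groups 14.3% and 10.3%. RAB27A, a small GTPase of secretory granules, averaged 174 scaled CPM after culture, 166 after maturation in vivo and 397 in GV, 2.28-fold and 2.40-fold lower than in GV. NSF, the ATPase that recycles the fusion machinery, was 1.90-fold higher in IVO MII than in GV (adjusted p = 0.00384). Between IVM MII and IVO MII 5 genes of this list were higher and 0 lower, or 1 lower without IVO MII replicate 1. CALR, a calcium-binding chaperone also found in cortical granules, had 40.2 and 38.6 scaled CPM in IVM MII, against 17.5 and 18.2 in IVO MII. Of the relatives of ASTL, TLL1 and the inhibitor of ovastacin, FETUB, known from plasma, had 0 counts in every library. Only MEP1A and BMP1 were tested among the 6 listed astacins and fetuin B, and their highest group means were 4.15 and 0.966 scaled CPM. Both were lower in IVO MII than in GV and higher in IVM MII than in IVO MII, and 0 of 2 were called in IVM MII against GV. The first of these counts was 1 without GV replicate 1, and the next was 0 without IVM MII replicate 2 and 1 without IVO MII replicate 1.

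Zona proteins are cut free of the membrane by proprotein convertases and carry many glycans. PCSK5, the most abundant of the 4 convertases listed, averaged 109 scaled CPM after culture, 119 after maturation in vivo and 491 in GV, 4.48-fold and 4.14-fold lower than in GV. FURIN was 2.34-fold higher in IVO MII than in GV (adjusted p = 0.00120). It was also called in IVM MII against GV (adjusted p = 0.0423), but not without IVM MII replicate 1 or either GV replicate. That call of FURIN also ended with RLE factors (0.60), DESeq2 (0.60), the compared libraries alone (0.56), the length offset (0.43), the strict filter (0.38) and the test against a 2-fold change. Of the 3 convertases tested these 2 were the ones called, and 0 were called between the MII groups, where PCSK7, FURIN and PCSK5 had unadjusted p-values of 0.934, 0.0352 and 0.624. Of 23 genes of N- and O-glycosylation, all tested, 7 were higher and 7 lower in IVO MII against GV, beside 28.1% and 30.5% of all genes tested. Those shares of all genes were 25.6% and 24.7% in IVM MII against GV, and 14.3% and 10.3% between the MII groups. The same counts, 7 and 7, were found in IVM MII against GV, where 4 were higher without IVM MII replicate 2 or GV replicate 1, and 4 and 4 without GV replicate 2. DAD1, a subunit of the enzyme that transfers N-glycans, was 8.07-fold lower in IVO MII and 3.57-fold lower in IVM MII than in GV. B4GALT1, a galactosyltransferase, was 4.63-fold and 2.92-fold higher. Between IVM MII and IVO MII 4 of the 23 were higher and 2 lower, or 1 lower without either IVM MII replicate.

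Of the transcription factors of the zona genes, FIGLA showed the largest fold in these data among those named here. FIGLA, which activates zona genes in mice, had 7.76 and 11.3 scaled CPM in the IVM MII libraries, 3.63 and 7.10 in the IVO MII libraries, and 71.6 and 109 in GV. Against GV, FIGLA was 9.44-fold lower after culture and 16.7-fold lower after maturation in vivo, and it did not pass between the MII groups (adjusted p = 0.0962). LHX8, needed for oocyte growth in mice, was 3.33-fold lower in IVO MII than in GV (adjusted p = 3.65e-04) and 1.88-fold lower in IVM MII than in GV (adjusted p = 0.0190). The LHX8 call in IVM MII ended without IVM MII replicate 1 (-0.84), IVM MII replicate 2 (-0.94) or GV replicate 2 (-0.58), with library totals (-0.62) and with the length offset (-0.55). SOHLH2, of the same set, was 3.03-fold higher in IVM MII than in GV. Of 8 such genes and FIGLA partners tested, 2 were higher and 3 lower in IVO MII against GV, and 1 and 3 in IVM MII against GV. The shares of all genes tested were 28.1% and 30.5% in the first comparison, and 25.6% and 24.7% in the second. Between the MII groups they were 14.3% and 10.3%. The 2 higher genes were 1 without IVO MII replicate 1 or GV replicate 2. In IVM MII against GV 1 was lower without IVM MII replicate 2, and 2 were higher without IVO MII replicate 2 or GV replicate 1. Between the MII groups 1 was higher and 0 lower, 2 higher without either GV replicate, and 3 higher and 2 lower without IVO MII replicate 2.

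Genes of the sperm side of binding and fusion served as a comparison. Of 16 listed, 13 were in the table and 6 were tested, and 9 stayed under 1 scaled CPM in every group. Of the 6, 1 was higher in IVM MII against GV, or 0 without GV replicate 2, and 1 was lower in IVO MII against GV. Their summed level was 7.25 and 8.81 scaled CPM in the IVM MII libraries, 5.10 and 7.00 in the IVO MII libraries, and 7.53 and 6.83 in GV, and DCST1, DCST2, ADAM2 and SPAM1 had 0 counts in every library.

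Markers of other ovarian cells moved in part with these groups. The summed level of 12 cumulus and granulosa markers was 80.2 and 79.1 scaled CPM in the IVM MII libraries, 34.9 and 51.5 in the IVO MII libraries, and 38.6 and 32.4 in GV. HSD17B1, INHA, FOXL2 and PTX3 of this list had 0 counts in every library, and 5 of the 12 were tested. Of these 5, 2 were higher and 1 lower in IVM MII against GV, 1 and 1 in IVO MII against GV, and 2 and 0 between the MII groups. GREM1 averaged 29.0 scaled CPM in IVM MII, 4.01 in IVO MII and 3.97 in GV, and TNFAIP6 averaged 27.9 in IVM MII and 13.7 in IVO MII, where it was 1.61-fold lower than in GV. HAS2 averaged 18.7 in IVM MII, 22.2 in IVO MII and 4.99 in GV, so it was higher than in GV by both routes. CYP19A1 (listed as LOC102117886), called lower in IVM MII against GV, had 0 and 4 counts in the IVM MII libraries, 17 and 3 in the IVO MII libraries, and 9 and 30 in GV. FSHR averaged 3.89, 2.76 and 3.73 scaled CPM and was not called in any of the 3 comparisons. The 10 markers of theca, stroma and endothelium summed to 159 and 150 in IVM MII, 86.7 and 83.1 in IVO MII, and 326 and 384 in GV, of which VWF made 103, 43.9 and 312 on average. PECAM1, another endothelial marker, went the other way from VWF, with 19.4 scaled CPM in IVM MII, 15.6 in IVO MII and 9.34 in GV, and was called higher in IVM MII against GV (adjusted p = 0.00738) and in IVO MII against GV (adjusted p = 0.0356). CDH5, also endothelial, averaged 31.3, 24.8 and 32.8 and was not called. CYP17A1 (listed as LOC102133235), STAR and LUM had 0 counts. The 9 blood and immune markers summed to 4.38 to 13.7 scaled CPM, with CD3E, HBB and ALAS2 at 0 counts. CD9 is also made by cells other than oocytes, and the part of such cells in its level was not tested.

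The patterns of the members over the 6 libraries were compared by the root mean square difference of log2 CPM, each gene centred on its own mean. The closest pair of members was CD9 and ZP4, at 0.21, and IZUMO1R was at least 1.14 from each of the others. The median distance to the 5875 other genes with a symbol and at least 10 scaled CPM on average was 0.85 for ZP2, 1.03 for CD9, 1.10 for ZP4, 1.26 for ZP3, 1.43 for ASTL and 2.01 for IZUMO1R. The nearest genes to ZP2 were ALG8, PRSS2 and PEX19 at 0.06 to 0.07, those to ZP3 were OXLD1, JTB and C12H2orf47 at 0.13 to 0.14, and those to ZP4 were UBE2D4, PFDN1 and TRAPPC4 at 0.12 to 0.14. Nearest to CD9 were CACYBP at 0.07 and DYNC1LI1 and AK5 at 0.11 to 0.12. ASTL had FKBP9, SLC22A2 and POLR2J nearest, at 0.22 to 0.28. FKBP9 shared the low level in IVO MII, with means of 72.6, 12.2 and 69.8 scaled CPM in IVM MII, IVO MII and GV. IZUMO1R had DDX56, RABL3 and YIPF1 nearest, at 0.18 to 0.22, and DDX56 averaged 14.8, 14.1 and 187 scaled CPM in those groups. These are the closest of many genes over 6 libraries in 3 groups and are given as a description.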

How the data were processed

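The deposited table holds raw counts of each gene. Per the file headers, paired reads were counted over exons and summed by gene with featureCounts 2.0.1, unstranded, on RefSeq genes of macFas5. Per the labels' protocols, oligo-dT primed the cDNA, which was amplified after template switching and tagmented; per the submitters' processing notes, fastp, FastQC, Bowtie2 and SAMtools were also used. No molecular identifiers are named in the sources used here.

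Of 28164 genes, filterByExpr kept 15815. edgeR 4.0.16 (R 4.3.3) gave TMM factors of 0.903 to 1.22 and a robust quasi-likelihood fit to all 6 libraries with groups as terms, 3 residual degrees of freedom and a biological coefficient of variation of 0.232. Tests were two-sided, adjusted over all genes tested at 0.05, and p-values measure the spread between these libraries, which may be technical. Scaled CPM and TPM were computed from the deposited counts and exonic lengths. The lists are described by counts and medians. Genes of a list were named, up to 3 per direction and comparison by adjusted p, if called with separate libraries and at least 1 scaled CPM; genes of 6 lists (other egg coat genes, tetraspanins and integrins, folate receptors, astacins, convertases and transcription factors) could be named without a call, and marker genes where they moved with a result. The 3 nearest patterns per member were named. Members and lists were chosen with earlier results of these data known. Of the LOC identifiers, 788 were given a symbol from a later RefSeq assembly (MFA8v1.1), used for names only. Replicate numbers carry no stated link between groups. The alternatives were DESeq2 1.42.0, limma-voom (limma 3.58.1), RLE factors, library totals, no filter, a minimum of 10 CPM in 2 libraries, fits to the 4 libraries compared, a replicate block, a non-robust fit, a test against 2-fold, a length offset, and each library left out, which leaves a lone library assumed to vary like the others.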

Additional observations from a re-analysis of the deposited data

How the results depend on the processing

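Every member kept its direction in IVO MII against GV and in IVM MII against IVO MII under all 17 alternatives. Against a 2-fold change the calls of ZP4 in IVM MII against GV (-0.80), of ZP2 in IVO MII against GV (-1.15) and of ZP2 (0.83), ZP3 (1.62), ZP4 (1.12) and CD9 (1.23) in IVM MII against IVO MII ended, leaving 1 member called in IVM MII against GV and 1 between the MII groups. Library totals ended the call of ZP4 in IVM MII against GV (-0.51), and the length offset that of ZP4 there (-0.46) and of ZP2 between the MII groups (0.70), each leaving 1 member called in IVM MII against GV. The length offset reversed CD9 in IVM MII against GV, to 0.10 without a call. The causes were not tested. With 1 library left out, log2 fold changes in IVM MII against GV ran from -0.14 to 0.64 for ASTL, from -0.91 to -0.65 for ZP4, from -0.59 to -0.10 for CD9, from -0.93 to -0.08 for ZP3 and from -0.39 to -0.23 for ZP2; between the MII groups they ran from 0.78 to 0.91 for ZP2, 1.26 to 2.10 for ZP3, 0.95 to 1.34 for ZP4 and 0.95 to 1.59 for CD9, and 2 to 5 members were called there and 1 to 2 in IVM MII against GV. With library totals, the median over all genes tested was 0.35 in place of 0.06 in IVM MII against GV and 0.24 in place of 0.02 between the MII groups, and 63.7% in place of 50.9% of the calls, and 75.8% in place of 58.0%, were higher in these comparisons. The replicate block, for example -0.80 for ZP4 in IVM MII against GV and 0.84 for ZP2 between the MII groups, changed no call of a member. Under it, 0 in place of 1 convertase was higher in IVM MII against GV, 2 in place of 1 granule gene in IVO MII against GV, and 3 in place of 1 transcription factor between the MII groups. The correlations of replicate deviations were -0.11, -0.14 and 0.18, which cannot show whether libraries with the same replicate number share an animal or batch. The numbers are not taken as pairs because the labels state no link between them. Each member had at least 302 counts per library. The number of molecules behind them is not known, since the cDNA was amplified and no molecular identifiers are named. The calls over all genes were 4053 higher and 3908 lower for IVM MII against GV, 4442 and 4816 in IVO MII against GV, and 2260 and 1635 between the MII groups. Against a 2-fold change these were 803 and 2060, 1768 and 2841, and 598 and 326. With the strict minimum, where fewer genes were tested, they were 2268 and 2352, 2727 and 2859, and 1588 and 1051. Between the MII groups they were 1327 and 753 without IVM MII replicate 2, and 895 were lower without IVM MII replicate 1 and 894 with library totals; in IVM MII against GV, 2580 were higher without GV replicate 2.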
